A study of Homo sapiens with 8 samples.

Results

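The ERBB and FGF receptors were followed through 8 RNA sequencing libraries of human neuroblastoma cells. The 8 genes were EGFR, ERBB2, ERBB3, ERBB4, FGFR1, FGFR2, FGFR3 and FGFR4, found through their Ensembl identifiers in GENCODE 29 among the 58721 genes of each count file, and all 8 passed the filter on low counts. The established neuroblastoma lines CHLA-20 and NGP were each given the vehicle DMSO or a PRMT5 inhibitor for 6 days, which makes 4 groups of 2 libraries. The inhibitor is JSK591 in the sample names and GSK591 in the description of the treatment. It was given at its IC50, for which no concentration is stated, and JSK591 is the name used below. The medium was IMEM with an insulin, transferrin and selenite supplement for CHLA-20 and RPMI1640 for NGP, both with fetal bovine serum, so line and medium cannot be told apart. The family was selected on earlier results of these data, in which the treatment changes of FGFR4 and ERBB4 in CHLA-20 were among the large decreases, though which values decided the choice is not stated. For the receptors, the treatment in CHLA-20 and the difference of the treatment effects between the lines are therefore described without a test, while the treatment in NGP and the comparison of the lines under DMSO were tested. Those tests would not be free of the choice if it also drew on these contrasts.

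ERBB and FGF receptors are receptor tyrosine kinases: a ligand outside the cell brings receptor molecules together, the kinase domains phosphorylate each other, and adaptors carry the signal to the RAS-MAPK and PI3K-AKT pathways. EGFR binds EGF-like ligands, ERBB2 has no known ligand and works as a partner, ERBB3 binds neuregulins with a weak kinase, and ERBB4 binds neuregulins with an active one. The FGF receptors bind FGFs with heparan sulphate or a klotho protein as co-receptor. PRMT5, the target of the inhibitor, methylates arginines symmetrically, among them those of histones and spliceosome proteins. Sprouty proteins and the phosphatase DUSP6 are textbook products of active MAPK signalling that act back on it.

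Gene counts per library ranged from 33188542 to 34914902. Levels are given as CPM, counts scaled to a common library size by TMM, and the 3 counts that a count of 0 still allows were 0.0859 to 0.0904 CPM. Markers of the adrenergic neuroblastoma state summed to 6116 to 6259 CPM in CHLA-20 DMSO and 2636 to 2801 CPM in NGP DMSO. In NGP DMSO the noradrenergic enzymes TH and DBH were nearly absent, with group means of 0.762 and 0.284 CPM, while the adrenergic factors HAND2 and GATA3 stood at 663 and 605 CPM. CHGA had no count in 3 of the 4 groups. Over all libraries, blood markers summed to 0.0588 to 0.404 CPM, endothelial markers to 0.260 to 0.917 CPM, Schwann cell markers to 2.09 to 4.73 CPM and epithelial markers to 2.69 to 9.65 CPM. In bulk RNA, fewer cells with a transcript and less of it per cell cannot be told apart.

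Levels of different receptors are comparable only per length, here as CPM per kilobase of exon (RPKM). Under DMSO, EGFR was highest in CHLA-20, at 7.27 RPKM (mean of 2 libraries), followed by FGFR1 at 4.08, FGFR4 at 2.92 and ERBB2 at 1.93 RPKM. FGFR2 at 0.418, FGFR3 at 0.348, ERBB4 at 0.278 and ERBB3 at 0.0819 RPKM formed a lower tier, and no 2 neighbours in this order overlapped. NGP under DMSO had another order. FGFR1 led at 6.93 RPKM, then FGFR4 at 3.53, FGFR3 at 2.84 and ERBB4 at 2.02 RPKM. EGFR at 1.54 and FGFR2 at 1.45 RPKM overlapped, ERBB2 followed at 1.19 and ERBB3 was last at 0.0562 RPKM. The RPKM of the 4 ERBB genes summed to 9.56 in CHLA-20 DMSO and 4.80 in NGP DMSO, and that of the 4 FGF receptors to 7.77 and 14.8. With JSK591 the sums were 6.04 and 4.08 in CHLA-20 and 5.34 and 15.2 in NGP. The order depends on the length used: with the longest annotated transcript in place of the total exon length, 22 of the 32 ranks stayed the same. On that scale EGFR and FGFR1 overlapped in CHLA-20 DMSO (means 9.26 and 9.10), FGFR1 led EGFR in CHLA-20 with JSK591 (6.03 and 5.44), and ERBB2 passed ERBB4 and EGFR in NGP DMSO (2.49, 2.17 and 1.96). FGFR1 stayed highest in NGP and ERBB3 lowest in every group.

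**Figure D1:**
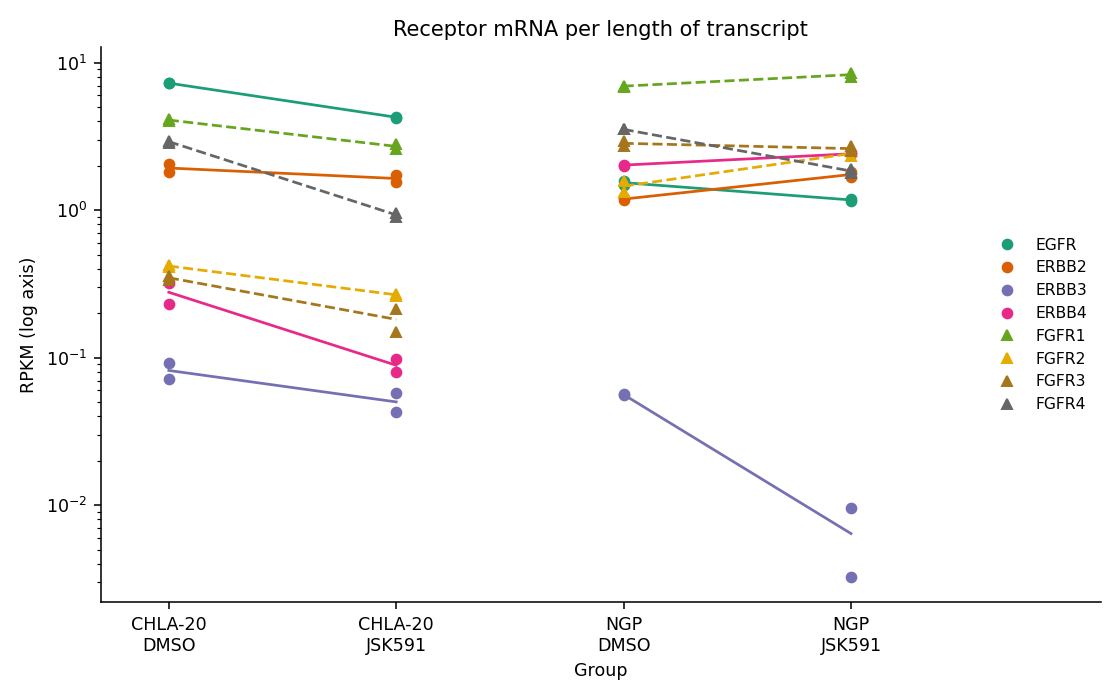
RPKM (log axis) of the 8 receptors in the 4 groups. Each point is a library, lines join the group means of a line's DMSO and JSK591 groups, circles with solid lines are ERBB genes and triangles with dashed lines are FGF receptors; on this scale, with total exon length, EGFR is highest in CHLA-20, FGFR1 is highest in NGP, and ERBB3 is lowest in every group.

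With JSK591, the levels of all 8 receptors were lower in CHLA-20, and for each of them both treated libraries lay below both vehicle libraries. The share of all genes whose groups separate in this way is not given here, so nothing is read from the separation. FGFR4, a receptor for klotho-dependent and other FGFs, had 13.8 and 14.3 CPM under DMSO and 4.36 and 4.61 CPM with JSK591, a log2 change of -1.65 ± 0.10. Here and below, ± gives the SE from the fit to all 8 libraries, with n = 2 per group. ERBB4 had 4.20 and 3.02 CPM under DMSO and 1.27 and 1.04 CPM with JSK591, a log2 change of -1.64 ± 0.18. These were the receptors with the largest decreases, and they ranked 305th and 308th from the lowest of 19395 genes.

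EGFR, the receptor of EGF-like ligands, had 90.8 and 91.1 CPM under DMSO and 53.2 and 53.6 CPM with JSK591. Its log2 change was -0.77 ± 0.05, a level 1.70-fold lower. FGFR1 had 57.5 and 55.6 CPM under DMSO and 38.9 and 36.1 CPM with JSK591 (log2 change -0.59 ± 0.05). Both genes had nearly equal values within each group. FGFR2 had 3.23 and 3.11 against 2.05 and 1.99 CPM, a log2 change of -0.65 ± 0.17. FGFR3 had 1.63 and 1.75 against 0.722 and 1.04 CPM, a log2 change of -0.94 ± 0.23. ERBB2, the partner without a ligand, had 18.7 and 21.2 against 17.7 and 16.1 CPM, the smallest change at -0.24 ± 0.08. It was -0.15 with a trend over GC content removed and -0.12 without the second DMSO library. ERBB3, the least expressed receptor, had 0.829 and 0.652 against 0.519 and 0.387 CPM, from 50 counts under DMSO and 31 with JSK591 (log2 change -0.70 ± 0.39). Over all genes tested, edgeR's quasi-likelihood test at an adjusted p of 0.05 called 39.4% in this contrast (16.9% higher and 22.4% lower), and nothing is read from it for the receptors. The median of the 8 log2 changes was -0.73, and that of all genes -0.02.

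In NGP, JSK591 moved the receptors in both directions: 4 rose, 3 fell and 1 did not pass the test, so 7 of 8 were called, beside 36.2% of all genes (16.8% higher and 19.4% lower). FGFR2 rose most, from 10.1 and 12 CPM under DMSO to 17.7 and 19.0 CPM, a log2 change of 0.74 ± 0.09 (edgeR adjusted p = 5.93e-10). ERBB2 rose from 12 and 12.5 to 17.3 and 18.8 CPM, by 0.55 ± 0.08 (edgeR adjusted p = 1.00e-07). FGFR1, the leading receptor of NGP, rose from 95.4 and 96.5 to 119 and 111 CPM, by 0.26 ± 0.04 (edgeR adjusted p = 2.02e-06). In each of these 3 genes both treated libraries lay above both vehicle libraries, a description for which no share of all genes is given.

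ERBB4 had 26.1 and 26.5 CPM under DMSO and 31.7 and 31.1 CPM with JSK591 in NGP, a log2 rise of 0.26 ± 0.07 (edgeR adjusted p = 0.00215). This call was lost with DESeq2 (0.24, adjusted p = 0.105) and without the first NGP DMSO library (0.22, edgeR adjusted p = 0.0523). FGFR4 fell, from 17.1 and 17.0 to 9.18 and 8.61 CPM, by 0.94 ± 0.09 on the log2 scale (edgeR adjusted p = 1.19e-13), a level 1.92-fold lower. EGFR fell from 18.6 and 19.9 to 14.4 and 15.0 CPM, with a log2 change of -0.39 ± 0.07 (edgeR adjusted p = 5.34e-06). FGFR4 and EGFR were lower with the inhibitor in both lines.

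ERBB3 was close to the limit of detection in NGP. Its libraries held 17 and 17 counts under DMSO and 3 and 1 counts with JSK591, and the edgeR test called it lower (log2 change -3.05 ± 0.65, adjusted p = 0.000115). As a ratio of summed counts scaled to depth, the DMSO level was 8.72 times that with JSK591, with an exact 95% interval of 3.11 to 33.8 that covers counting error only. The fitted log2 change was -3.97 without the first NGP JSK591 library and -2.50 without the second. FGFR3 had 13.2 and 14.3 CPM under DMSO and 12.2 and 13.1 CPM with JSK591. Its log2 change of -0.12 ± 0.09 did not pass the test (edgeR adjusted p = 0.336), with a 95% interval of -0.30 to 0.07.

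**Figure D2:**
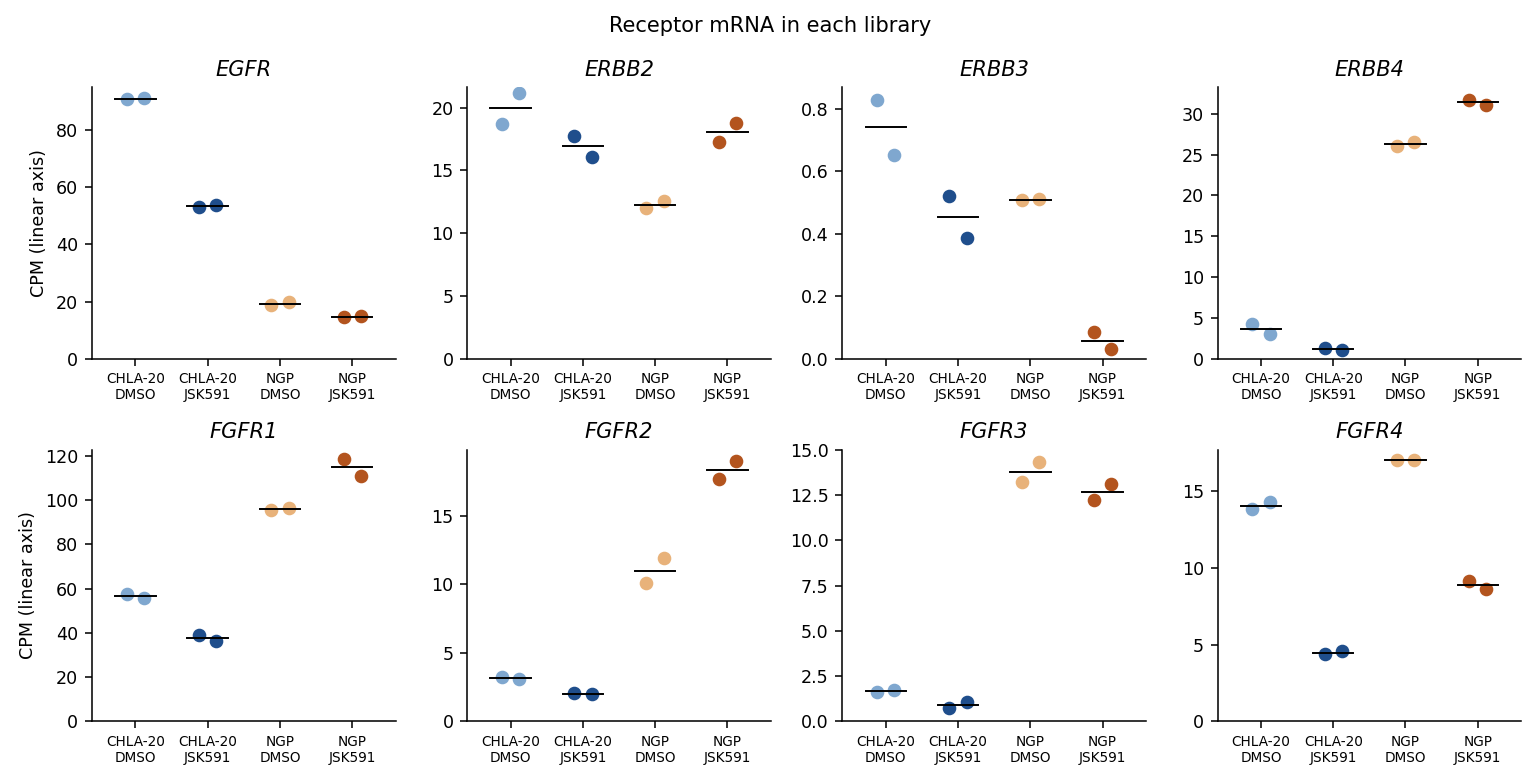
CPM (linear axes from 0, 1 scale per panel) of each receptor in each of the 8 libraries, by group. Points are libraries and bars are means of 2; in CHLA-20 every receptor is lower with JSK591, while in NGP ERBB2, ERBB4, FGFR1 and FGFR2 are higher and EGFR, ERBB3 and FGFR4 lower.

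Set side by side, 4 receptors (ERBB2, ERBB4, FGFR1 and FGFR2) had estimates below 0 in CHLA-20 and above 0 in NGP, and 4 (EGFR, ERBB3, FGFR3 and FGFR4) had estimates below 0 in both lines. The difference of the log2 changes, NGP minus CHLA-20, was 1.89 ± 0.20 for ERBB4, 1.38 ± 0.19 for FGFR2, 0.85 ± 0.07 for FGFR1, 0.82 ± 0.25 for FGFR3, 0.79 ± 0.11 for ERBB2, 0.71 ± 0.14 for FGFR4 and 0.38 ± 0.08 for EGFR. It was -2.35 ± 0.80 for ERBB3, the only receptor whose estimate was lower in NGP. These 8 differences are a description. Of all genes, 27.7% were called in this contrast. Fibroblast markers summed to 460.1 to 460.2 CPM under DMSO and 411 to 425 CPM with JSK591 in CHLA-20. In NGP their sums were 607 to 626 and 677 to 713 CPM. The higher sum in NGP came from collagen COL1A1 alone, the main part of the list there (group means 547 and 637 CPM). Every other fibroblast marker had a lower mean with JSK591 in NGP, such as THY1 (57.9 and 47.7 CPM) and LUM (3.78 and 2.68 CPM). In CHLA-20 the markers went both ways. Of the 6 markers, 1 was called higher and 2 lower in each line, and no marker was at 0 in a whole group. Adrenergic markers summed to 4899 to 5014 CPM with JSK591 in CHLA-20, below both DMSO libraries, with 4 of 11 tested higher and 7 lower, and to 2571 to 2572 CPM in NGP, with 3 higher and 5 lower. The part of either list in the receptors' values was not tested.

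**Figure D3:**
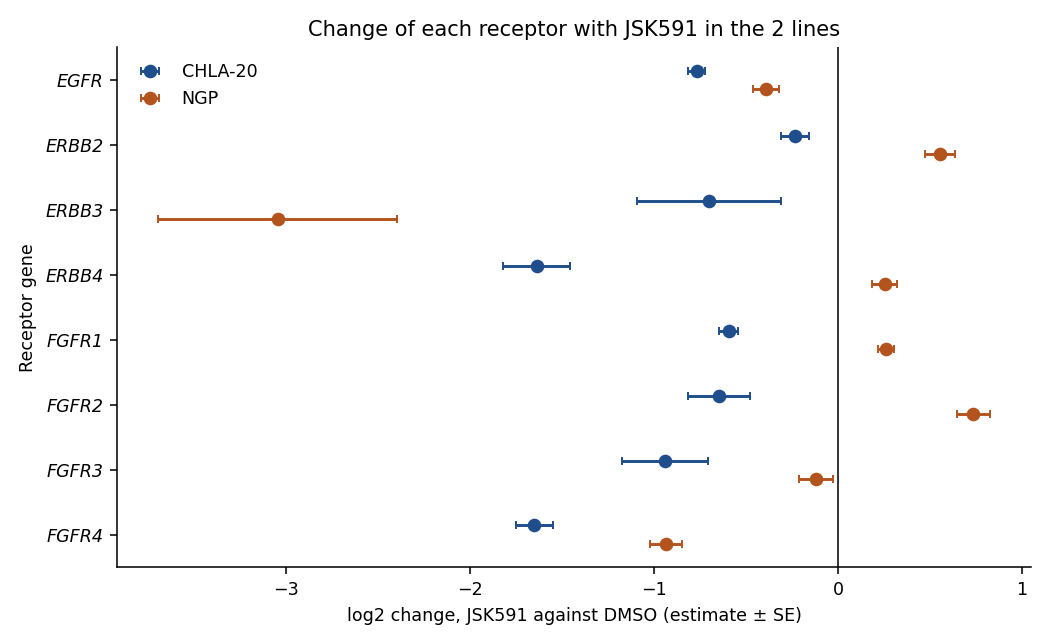
Log2 change with JSK591 against DMSO of each receptor in CHLA-20 (blue) and NGP (orange). Points are estimates and bars are their SE from the fit to all 8 libraries, with 2 libraries per group. All CHLA-20 points lie below 0, and the NGP points run from -3.05 (ERBB3) to 0.74 (FGFR2).

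Without the inhibitor, the lines differed in 7 of 8 receptors, of which 5 were higher and 2 lower in NGP, beside 75.5% of all genes called in this comparison. FGFR3 was 8.14-fold higher in NGP DMSO than in CHLA-20 DMSO (log2 difference 3.03 ± 0.13, edgeR adjusted p = 8.25e-30) and ERBB4 7.27-fold higher (2.86 ± 0.10, edgeR adjusted p = 1.93e-35). FGFR2 was 3.47-fold higher (1.80 ± 0.12) and FGFR1 1.70-fold higher (0.76 ± 0.05). EGFR was 4.73-fold lower in NGP (log2 difference -2.24 ± 0.06, edgeR adjusted p = 2.30e-43) and ERBB2 1.62-fold lower (-0.70 ± 0.08). FGFR4 differed least among those called (0.28 ± 0.08, edgeR adjusted p = 0.00188), and its difference was 0.66 with the GC trend removed. ERBB3 did not pass (-0.54 ± 0.39, edgeR adjusted p = 0.202, 95% interval -1.31 to 0.23). This comparison uses the same DMSO libraries as the treatment comparisons, so the 2 kinds of difference are not independent.

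The stretch upstream of the transcript start is shown for FGFR4 and EGFR, which were lower with JSK591 in both lines, and for ERBB4 and FGFR2, whose directions differed between the lines. Of the 8 genes, 6 were matched in the RefSeq promoter table (build GRCh38.p14). Each window covers the bases from 250 to 51 before the RefSeq start nearest to the GENCODE start, 5′ to 3′ on the gene's strand. Capitals mark matches to 5 motifs, searched on either strand. The GC box bound by Sp1 family factors was searched as GGGCGG. For the E-box of the MYC family the letters were CACGTG, and for the AP-1 site of FOS and JUN proteins they were TGANTCA. For sites of the ETS family of transcription factors CCGGAA was used. The TATA box, near which some promoters start transcription, was searched as TATAAA. No 2 of these matches overlapped in the printed windows. The windows are chr5:177086665-177086864 on the plus strand for FGFR4, chr7:55018767-55018966 on the plus strand for EGFR, chr2:212538853-212539052 on the minus strand for ERBB4 and chr10:121598495-121598694 on the minus strand for FGFR2.
FGFR4 promoter window: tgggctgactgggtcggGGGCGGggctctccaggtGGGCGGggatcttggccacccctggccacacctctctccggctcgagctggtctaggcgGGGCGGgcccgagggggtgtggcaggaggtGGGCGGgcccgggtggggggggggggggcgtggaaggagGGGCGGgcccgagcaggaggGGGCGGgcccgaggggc
EGFR promoter window: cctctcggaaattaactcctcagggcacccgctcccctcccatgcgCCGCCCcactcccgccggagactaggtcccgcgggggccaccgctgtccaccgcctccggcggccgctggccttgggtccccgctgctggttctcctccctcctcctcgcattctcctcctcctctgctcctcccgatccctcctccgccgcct
ERBB4 promoter window: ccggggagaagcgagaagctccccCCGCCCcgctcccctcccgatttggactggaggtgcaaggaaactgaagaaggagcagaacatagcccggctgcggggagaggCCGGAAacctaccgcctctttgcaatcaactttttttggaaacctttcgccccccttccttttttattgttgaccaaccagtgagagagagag
FGFR2 promoter window: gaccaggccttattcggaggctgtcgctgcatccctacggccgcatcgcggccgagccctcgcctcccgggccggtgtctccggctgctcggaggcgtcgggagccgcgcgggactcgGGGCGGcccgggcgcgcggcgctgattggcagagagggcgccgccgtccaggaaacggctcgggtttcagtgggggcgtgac
The FGFR4 window held 6 GC boxes, and the windows of EGFR, ERBB4 and FGFR2 held 1 each, while 35% of all 35116 promoter windows of this length held at least 1. FGFR3, whose window is not printed, held 7 GC boxes. ERBB4 also held 1 ETS match, present in 10% of windows. No E-box or TATA match was found in the 6 receptor windows (4.51% and 7.63% of all windows hold them). The AP-1 letters were found once, in ERBB2 (5.27% of all windows). Bases closer to the start than 51 were not searched, so the windows cannot show whether a TATA box lies next to the start. GC content of the window was 79.5% in FGFR4, 71.5% in EGFR, 56.5% in ERBB4 and 75.0% in FGFR2. A match is only a match of letters.

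The nearest tested protein-coding genes on either side were measured in the same fit. FGFR4 (chromosome 5) lies between ZNF346, a zinc finger gene whose log2 change was -0.21 ± 0.07 in CHLA-20 and -0.43 ± 0.06 in NGP, and the histone methyltransferase gene NSD1, with 0.15 ± 0.04 and 0.03 ± 0.05. EGFR (chromosome 7) lies between SEC61G (0.24 ± 0.05 in CHLA-20, -0.11 ± 0.06 in NGP) and LANCL2 (0.58 ± 0.07 and 0.28 ± 0.07). ERBB4 (chromosome 2) lies between CPS1, at -0.04 ± 0.21 and -0.21 ± 0.15, and IKZF2, at -0.70 ± 0.20 and 0.03 ± 0.12. PGAP3 and MIEN1 overlap ERBB2, which shares 7.41% of its exon bases with other genes, and without a stated strand setting its counts are less certain.

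The genes most alike in pattern, by the smallest root mean square difference of centred log2 CPM over the 8 libraries among 12282 protein-coding genes, were C1QL4 (0.09) and DLX3 (0.09) for EGFR. For ERBB2 MCRIP2 (0.08) is given, and the nearest were for ERBB4 NAV3 (0.17) and MYCL (0.19), for FGFR1 KLHL17 (0.08) and UCP2 (0.08), and for FGFR2 GPR176 and HOXD13 (0.18 each). FGFR3 was closest to VIPR2 (0.11) and LTBP1 (0.14), and FGFR4 to PLCD1 (0.21) and CGN (0.22). For ERBB3, with 1 to 28 counts per library, the nearest were ABHD4 and TBX3, at 0.77 and 0.79. Candidates needed a mean of at least 1 CPM. Counting noise of ERBB3 enters its distance to such genes, so no lack of a match is read from it. Among the receptors themselves the most alike pair was ERBB4 and FGFR3, at 0.42.

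Of 11 genes for EGF family ligands, 4 were tested and 7 had at most 11 counts in any library, among them EGF and TGFA with at most 2 and BTC with none. In CHLA-20, 1 of the 4 rose and 1 fell with JSK591, and in NGP 1 fell, which is 50% and 25% called beside 39.4% and 36.2% of all genes. NRG3, a neuregulin that binds ERBB4, fell in CHLA-20 from 2.63 and 3.14 to 1.44 and 1.31 CPM (log2 change -1.07 ± 0.19, edgeR adjusted p = 3.92e-06). In NGP it had 8.47 and 8.09 against 6.84 and 6.56 CPM (-0.31 ± 0.11, edgeR adjusted p = 0.0282), a call lost without the first DMSO library (adjusted p = 0.101), without the second JSK591 library (0.142), with scarce genes kept in the fit (0.0703) and with DESeq2 (0.207). The neuregulin NRG1, which binds ERBB3 and ERBB4, had 17.5 and 18.9 against 20.5 and 21.0 CPM in CHLA-20 (0.19 ± 0.07, edgeR adjusted p = 0.0332). That call was lost without the first DMSO library (adjusted p = 0.268), without either JSK591 library (0.0795 and 0.148), with DESeq2 (0.189), with scarce genes kept (0.0778) and with the GC trend removed (0.0614). HBEGF, a ligand of EGFR and ERBB4, was 3.47-fold lower in NGP DMSO than in CHLA-20 DMSO (edgeR adjusted p = 2.48e-15).

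Of 18 secreted FGF ligands, 9 were tested, and 2 rose and 2 fell in CHLA-20 while 1 rose and 1 fell in NGP (44.4% and 22.2% called, beside 39.4% and 36.2% of all genes). FGF19, a ligand of FGFR4, fell in both lines. It had 2.87 and 2.70 CPM under DMSO and 1.21 and 1.72 CPM with JSK591 in CHLA-20 (log2 change -0.92 ± 0.19, edgeR adjusted p = 5.24e-05). In NGP it had 13.8 and 15.6 against 8.66 and 9.08 CPM (-0.73 ± 0.10, edgeR adjusted p = 1.06e-08). KLB, the co-receptor through which FGF19 acts on FGFR4, had 4 to 20 counts per library and was not tested. FGF2, a broad FGF receptor ligand, rose in NGP from 19.9 and 19.0 to 28.8 and 26.9 CPM (0.51 ± 0.07, edgeR adjusted p = 5.78e-09). It was also higher with JSK591 in CHLA-20, with 16.7 and 15.8 against 18.4 and 19.4 CPM. FGF10, a ligand of an FGFR2 splice form, rose in CHLA-20 from 18.9 and 19.8 to 24.9 and 23.7 CPM (0.33 ± 0.07, edgeR adjusted p = 0.000196). FGF21, another klotho-dependent ligand, had 9 and 25 against 4 and 2 counts in CHLA-20, and its call was lost without the second DMSO library. Under DMSO, FGF1 had 54 and 69 counts in CHLA-20 and 0 and 2 in NGP, whereas FGF5 had 2 and 3 counts in CHLA-20 and 43 and 40 in NGP.

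Of the 4 intracellular FGF homologous factors, which bind sodium channels and not FGF receptors in their textbook role, 3 were tested. FGF14 rose in CHLA-20 from 16.4 and 15.9 to 24.3 and 22.9 CPM (log2 change 0.54 ± 0.08, edgeR adjusted p = 1.77e-08). In NGP 0 of the 3 passed by edgeR's test, by DESeq2 or at an unadjusted p under 0.05. The shares called were 33.3% in CHLA-20 and 0% in NGP, beside 39.4% and 36.2% of all genes. FGF13 had 1884 and 1804 counts in NGP DMSO and 5 and 1 in CHLA-20 DMSO.

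Among 19 tested FGF co-receptors and binding proteins, 3 rose and 6 fell in CHLA-20 and 7 rose and 3 fell in NGP. The shares called were 47.4% and 52.6%, beside 39.4% and 36.2% of all genes. FGFRL1, an FGF receptor relative without a kinase domain, rose in NGP from 3.88 and 4.29 to 9.67 and 8.70 CPM (log2 change 1.17 ± 0.13, edgeR adjusted p = 1.42e-11). In CHLA-20 it had 1.66 and 1.69 against 2.60 and 2.05 CPM (0.48 ± 0.19, edgeR adjusted p = 0.0431). The heparan sulphate proteoglycan SDC1 rose in NGP from 78.6 and 82.9 to 106 and 104 CPM (0.38 ± 0.04, edgeR adjusted p = 1.43e-10), and FLRT1, a transmembrane protein of the FLRT family, from 4.47 and 4.83 to 7.82 and 6.85 CPM. In CHLA-20, SDC1 had 45.5 and 46.5 against 49.3 and 48.6 CPM, and FLRT1 6.95 and 6.16 against 7.42 and 6.84 CPM. In CHLA-20 the glypican GPC5 fell from 0.681 and 0.652 to 0.202 and 0.178 CPM (-1.79 ± 0.44, edgeR adjusted p = 0.000612). The calls of the scarce GPC4 (9 and 8 against 0 and 3 counts) and of SDC4 in CHLA-20 were each lost without 1 or more libraries: GPC4 without the first JSK591 library (adjusted p = 0.184), SDC4 without that library (0.207), without the first DMSO library (0.125) or with DESeq2 (0.180). Under DMSO the glypican GPC3 was 8.30-fold and anosmin ANOS1 10.5-fold higher in NGP.

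All 9 genes of the list of ligand-shedding proteases and iRhoms were tested, with 2 higher and 4 lower in CHLA-20 and 2 higher and 1 lower in NGP. These are 66.7% and 33.3% called, beside 39.4% and 36.2% of all genes. ADAM12 rose in CHLA-20 from 69.3 and 70.6 to 124 and 128 CPM (log2 change 0.85 ± 0.05, edgeR adjusted p = 8.24e-24), and the iRhom gene RHBDF1 fell from 2.81 and 3.29 to 1.5 and 1.52 CPM (-1.01 ± 0.21, edgeR adjusted p = 6.13e-05). The sheddase ADAM10 rose in NGP from 64.9 and 62.2 to 78.0 and 76.8 CPM (0.28 ± 0.05, edgeR adjusted p = 8.75e-07). It was higher with JSK591 in CHLA-20 too, at 63.8 and 67.5 CPM under DMSO and 75.8 and 76.0 CPM with JSK591. ADAM17, the main sheddase of EGFR ligands, passed in neither line (0.04 ± 0.06 in CHLA-20 and 0.01 ± 0.06 in NGP). ADAM12 and RHBDF2 were scarce in NGP DMSO, with 10 and 14 and with 2 and 6 counts.

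Of 26 tested adaptors and proximal signalling genes, 6 rose and 7 fell in CHLA-20, and 4 rose and 6 fell in NGP. These are 50% and 38.5% called, where 39.4% and 36.2% of all genes were. PLCG1, a phospholipase that binds activated receptors, rose in NGP from 217 and 206 to 291 and 280 CPM (log2 change 0.43 ± 0.04, edgeR adjusted p = 1.29e-14). In CHLA-20 it had 201 and 205 CPM under DMSO and 217 and 215 CPM with JSK591. The transcription factor gene STAT5A fell in CHLA-20 from 20.8 and 21.7 to 13.4 and 12.4 CPM (-0.72 ± 0.08, edgeR adjusted p = 3.38e-11), and the adaptor SHC2 from 84.7 and 91.3 to 65.9 and 61.0 CPM. In NGP, STAT5A had 3.90 and 3.63 CPM under DMSO and 3.87 and 3.85 CPM with JSK591. SHC2 was lower with JSK591 in NGP too, with 9.51 and 10.7 against 8.95 and 8.44 CPM. FRS2, the adaptor that links FGF receptors to GRB2 and SOS1, differed most between lines among those higher in NGP: 37.2 and 34.4 CPM in CHLA-20 DMSO and 372 and 370 CPM in NGP DMSO, a 10.4-fold difference (log2 difference 3.37 ± 0.05, edgeR adjusted p = 1.90e-57). With JSK591 it fell in NGP to 312 and 301 CPM (-0.28 ± 0.04, edgeR adjusted p = 1.65e-08), and in CHLA-20 it stood at 33.7 and 37.0 CPM (-0.02 ± 0.05, edgeR adjusted p = 0.828).

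Negative regulators were tested for 26 of 29 genes, with 10 higher and 5 lower in CHLA-20 and 5 higher and 6 lower in NGP. In CHLA-20 this is 57.7% called, beside 39.4% of all genes (16.9% higher, 22.4% lower), and in NGP 42.3%, beside 36.2% (16.8% higher, 19.4% lower). Those with the largest rises in CHLA-20 were the Sprouty genes and DUSP6. SPRY1 rose from 5.50 and 4.59 to 11.3 and 10.4 CPM (log2 change 1.11 ± 0.12, edgeR adjusted p = 3.41e-12) and SPRY2 from 17.7 and 14.8 to 31.2 and 31.8 CPM (0.96 ± 0.07, edgeR adjusted p = 1.16e-17). DUSP6 rose from 128 and 127 to 227 and 235 CPM (0.86 ± 0.04, edgeR adjusted p = 3.20e-26), and SPRY4 from 26.4 and 26.4 to 43.4 and 43.6 CPM (0.72 ± 0.06). In all 4 genes both treated libraries lay above both vehicle libraries, again without a share of all genes to set beside it.

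In NGP 0 of these 4 passed by edgeR, with 1 (SPRY2) at an unadjusted p under 0.05; there the log2 changes were 0.09 ± 0.16 for SPRY1, -0.18 ± 0.08 for SPRY2, -0.21 ± 0.13 for SPRY4 and 0.05 ± 0.16 for DUSP6. The difference of the effects, NGP minus CHLA-20, was past the threshold in each, but these genes are singled out here for their rise in CHLA-20, so the difference is not independent of that choice. It was -1.01 ± 0.20 for SPRY1 (edgeR adjusted p = 4.00e-05), -1.14 ± 0.11 for SPRY2 (4.44e-13), -0.93 ± 0.14 for SPRY4 (3.40e-07) and -0.81 ± 0.17 for DUSP6 (0.000112). DUSP6 was also 53.6-fold lower in NGP DMSO, at 2.18 and 2.58 CPM against 128 and 127. The ubiquitin ligase gene CBL, which marks activated EGFR for degradation, fell in both lines (-0.25 ± 0.05 in CHLA-20, edgeR adjusted p = 7.01e-05, and -0.30 ± 0.06 in NGP, edgeR adjusted p = 1.47e-05). ERRFI1, a direct inhibitor of the EGFR kinase, passed in neither line (-0.10 ± 0.09 and -0.03 ± 0.07).

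Among 37 other receptor tyrosine kinases tested, 6 rose and 14 fell in CHLA-20 with a median log2 change of -0.14, and 11 rose and 5 fell in NGP with a median of 0.07. Of all genes, 16.9% rose and 22.4% fell in CHLA-20 and 16.8% rose and 19.4% fell in NGP, and whether the split of the list differed between lines was not tested. RET, a receptor of neural crest cells, rose in CHLA-20 from 156 and 161 to 325 and 325 CPM (1.04 ± 0.04, edgeR adjusted p = 8.27e-32) and in NGP from 7.15 and 6.98 to 11.3 and 11 CPM (0.66 ± 0.09, edgeR adjusted p = 4.82e-09). ALK, a kinase often altered in neuroblastoma, rose in NGP from 36.6 and 36.5 to 55.9 and 56.2 CPM (0.62 ± 0.05, edgeR adjusted p = 1.69e-15). In CHLA-20 it had 63.8 and 61.9 CPM under DMSO and 70.0 and 70.7 CPM with JSK591. KIT fell in CHLA-20 from 5.18 and 4.18 to 1.79 and 1.81 CPM (-1.38 ± 0.15, edgeR adjusted p = 3.22e-11) and rose in NGP from 29.7 and 27.7 to 33.5 and 34.5 CPM (0.24 ± 0.07, edgeR adjusted p = 0.00203). Beside them, the median of the 8 ERBB and FGF receptors was -0.73 in CHLA-20 and 0.07 in NGP. These receptors were chosen with decreases in CHLA-20 known, so their median there is not free of the choice and is no comparison of families.

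**Figure D4:**
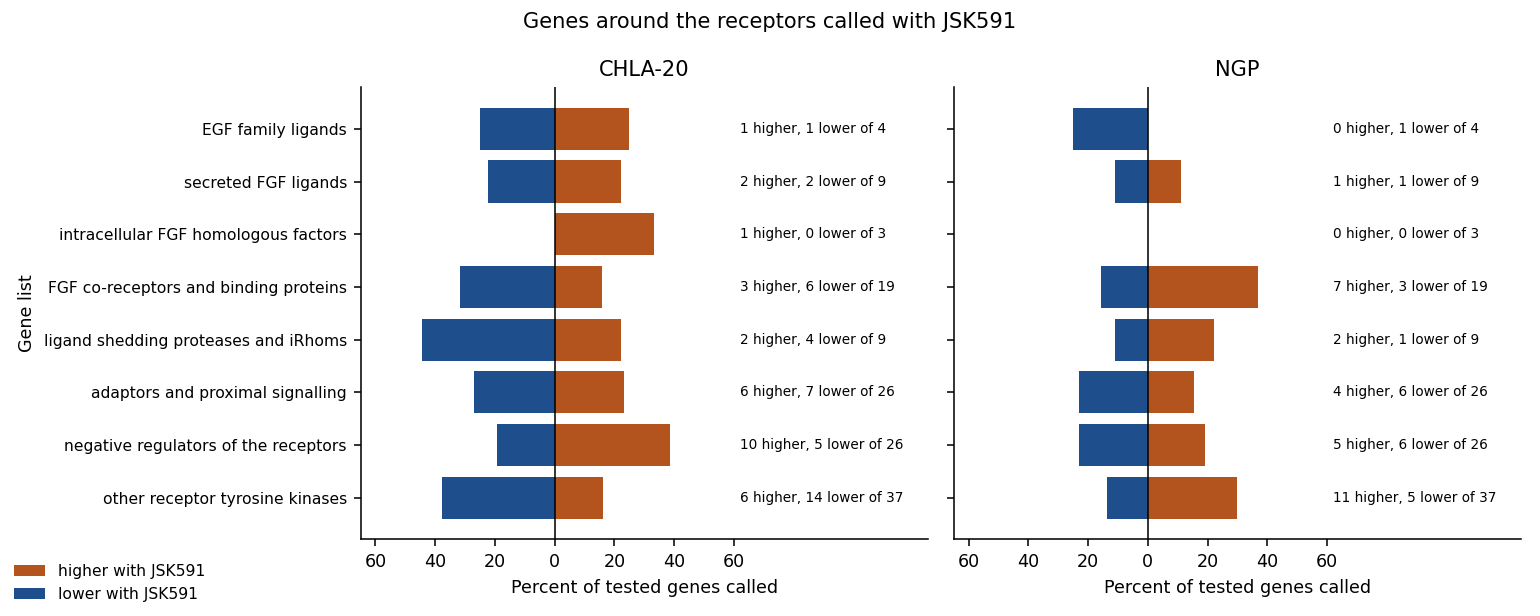
Percent of the tested genes of 8 lists that were called higher (right, orange) or lower (left, blue) with JSK591 in CHLA-20 and NGP by edgeR at an adjusted p of 0.05, with the counts beside the bars. Negative regulators have 10 higher and 5 lower in CHLA-20, and other receptor tyrosine kinases have 6 higher and 14 lower in CHLA-20 but 11 higher and 5 lower in NGP.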

How the data were processed

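Messenger RNA of 8 libraries was sequenced on a DNBseq instrument, per the labels' protocols. The authors deposited unnormalized counts per gene, 1 file per library. STAR, HTSeq and DESeq2 and the build GRCh38 (hg38) are named in the submitters' processing notes. Versions, annotation and strand setting are not given in the sources used here. Rows that name no gene were left out of library sizes: reads outside genes were 5.15% to 6.86%, ambiguous reads 6.77% to 7.18% and reads with several alignments 19.2% to 22.0% of all counted reads. Mitochondrially encoded genes took 19.0% to 21.4% of gene counts.

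Symbols, coordinates and exon lengths came from GENCODE 29. Counts were fitted with edgeR 4.0.16 in R 4.3.3: filterByExpr over the 4 groups left 19395 genes, libraries were scaled by TMM, and a quasi-likelihood model with 4 group means was fitted to all 8 libraries, with Benjamini-Hochberg adjustment over all genes tested and a threshold of 0.05. The biological coefficient of variation was 2.76%, with 4 residual degrees of freedom. The model was tested on simulated data. CPM and RPKM were computed from the counts with the TMM library sizes. The sources used here do not say that replicates came from separate cultures, so p-values measure only the spread between these samples, possibly a technical one. Replicate pairs differed by more than sampling noise (chi-square per degree of freedom 2.05 to 3.11).

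The 8 receptors, the lists around them and the tests were chosen with earlier results of these data known. Named from each list were up to 3 called genes with the largest change per contrast and separate groups; further contrasts of these genes, and CBL, ERRFI1 and ADAM17, were added after their values were seen. Alternatives were total count scaling, DESeq2 1.42.0, other count filters, a replicate block, removal of a GC trend, fits within a line and leaving out each library. Protein sequences were not used here, and a few genes that the rules name are not reported here.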

Additional observations from a re-analysis of the deposited data

Results flagged for a closer look

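For 4 receptors both JSK591 libraries lay on one side of the DMSO libraries in CHLA-20 and on the opposite side in NGP. The share of all genes with such a pattern is not given here. The differences of the log2 changes, NGP minus CHLA-20, were 0.79 for ERBB2, 1.89 for ERBB4, 0.85 for FGFR1 and 1.38 for FGFR2. For these receptors the difference was not tested.

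In the lists around the receptors, 17 genes named by the rule had a treatment effect that differed between the lines by edgeR's test of the difference. The rule names at most 3 genes of a list, so this number is set by the rule. Of all genes, 27.7% were called in this contrast. Shares called in the lists ran from 11.1% (secreted FGF ligands) to 63.2% (FGF co-receptors and binding proteins). The effect was higher in NGP for KIT (1.62), STAT5A (0.76), PLCG1 (0.34), RHBDF1 (1.35), FGFBP2 (2.59), GPC5 (1.58), GPC4 (2.18), NRG3 (0.76), ADAM19 (0.37) and FGF2 (0.30). It was lower in NGP for FLT1 (-2.67), DUSP5 (-1.42), SPRY2 (-1.14), SPRY1 (-1.01), FGF14 (-0.60), PIK3R1 (-0.52) and BACE1 (-0.26). FLT1, the VEGF receptor, had 21 and 30 counts under DMSO and 62 and 74 with JSK591 in CHLA-20, and 11 and 13 against 4 and 6 counts in NGP. The calls of RHBDF1, FGFBP2, GPC5, GPC4, NRG3, ADAM19, FGF2, DUSP5 and BACE1 were each lost when at least 1 library was left out. Without the second NGP JSK591 library the difference was 0.94 for RHBDF1 (edgeR adjusted p = 0.0902) and 2.00 for FGFBP2 (0.166). It was 1.77 for FGFBP2 without the first NGP DMSO library (0.135), and without the first CHLA-20 JSK591 library it was 1.22 for GPC4 (0.342). FGF2 stood at 0.20 without the first NGP JSK591 library (0.222), and ADAM19 at 0.22 without the first CHLA-20 DMSO library (0.352).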

How the results depend on the processing

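With DESeq2, 3415 genes were called for the difference of the effects, against 5368 with edgeR. Removing the GC trend turned that split from 2950 higher and 2418 lower to 2397 and 2958. With the GC trend removed, with or without the replicate block, ERBB2 stood at -0.15 and FGFR4 at -1.49 in CHLA-20, and their differences between lines at 0.65 and 0.47. The rise of ERBB4 in NGP was 0.24 with DESeq2, no longer past the threshold. Leaving out each library in turn gave -0.32 to -0.12 for ERBB2, -1.83 to -1.38 for ERBB4, -0.65 to -0.54 for FGFR1 and -1.22 to -0.69 for FGFR3 in CHLA-20, and 0.22 to 0.27 for ERBB4 in NGP. For the difference of the effects the ranges were 0.28 to 0.38 for EGFR, 0.65 to 0.87 for ERBB2, -3.30 to -1.80 for ERBB3, 1.63 to 2.07 for ERBB4, 0.75 to 0.91 for FGFR1 and 0.57 to 1.10 for FGFR3. No receptor changed direction under these alternatives. ERBB3 could not be tested with at least 10 counts in every library. The other 81 results named from the lists had 0 reversals, and 62 kept their call under every alternative.

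Same-numbered libraries showed no shared deviation over the genes tested (correlations -0.02 to 0.01). Counting noise enters these deviations, so this cannot show whether same-numbered samples were handled together. With the replicate block 7644 genes were called in CHLA-20, 7013 in NGP, 5397 for the difference and 14615 between lines, against 7639, 7021, 5368 and 14637 without it. Low counts limit ERBB3 and the scarce ligands, and with 2 libraries a group the spread of a gene rests mainly on that of all genes.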
